A study of Homo sapiens with 6 samples.

Results

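The genes described are 44 sodium and potassium channel genes, among 60617 gene identifiers counted in each tumor. They were taken by name, with no measured value in the rule, but earlier results of these data were known when they were chosen. Their shares set beside those of all genes therefore only describe this list. It holds 8 sodium channel pore genes and 3 sodium channel beta subunit genes of the SCN family. The other 33 are potassium channel genes of the KCNA, KCNAB, KCNC, KCND, KCNS, KCNQ, KCNH, KCNM, KCNN, KCNT, KCNJ and KCNK families. The working name of the group, voltage-gated channels, holds for part of it only. The KCNJ inward rectifiers, the KCNK background channels and the KCNN calcium-activated channels are not opened by a voltage sensor, KCNT2 is a sodium-activated channel, and KCNAB1, KCNAB2, KCNMB4, KCNS3 and the SCN beta subunits modify pores formed by other proteins. Every symbol matched 1 identifier, and 25 of the 44 passed the filter on low counts and were tested.

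Voltage-gated sodium channels open on depolarisation and carry the inward current that starts an action potential in neurons and muscle. Potassium channels carry the outward current that ends it and, in cells that do not fire, set the resting membrane potential, which bears on cell volume, calcium entry and the cell cycle. Melanocytes come from the neural crest, as sensory neurons and Schwann cells do, and transcripts of channels known from those cells are found in melanoma.

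RNA was sequenced from 6 xenograft tumors of WM983-B, an established line of human melanoma cells. Of these, 3 were treated systemically with anle138b, a diphenyl-pyrazole compound that binds oligomers of aggregating proteins, and 3 received no treatment. The titles were of 2 forms, called naming sets here: 4 titles (the 4-library set) cover treated and untreated replicates 1 and 2, and the other 2 (the 2-library set) cover replicate 3 of either group. The sources used here do not give the host strain, the dose, the length of treatment or the meaning of the naming sets. All tumors came from 1 cell line, so the values describe that line. The labels do not say whether each tumor grew in its own animal, and p-values therefore reflect how much these libraries vary, which may be technical.

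Counts summed to between 12400782 and 15865560 per tumor in the 4-library set and to 22768826 and 27599159 in the 2-library set. Levels are given as CPM, counts relative to library size after scaling by the trimmed mean of M values (TMM), and 3 counts, the limit that a count of 0 allows, stood for 0.106 to 0.239 CPM on this scale, for counting error only. All 10 melanoma markers examined were tested, and their summed level was 14068 to 19078 CPM. In bulk tumors, fewer cells of a type and less RNA per cell cannot be told apart. How mouse reads were handled was not given, so reads of the host's own channel genes may be among the counts, and their part in the results was not tested.

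To show the regulatory sequence beside the values, the 250 bases upstream of a RefSeq transcript start (GRCh38.p14) are printed for 4 members: SCN9A, the member called for treatment, KCNK5, the tested member with the largest difference between naming sets, and KCNH5 and SCN8A, which were read almost only in 1 set and did not pass the low-count filter. They are written 5′ to 3′ on the gene's strand. Capitals mark GC boxes, GGGCGG on either strand (CCGCCC where it lies on the opposite one), with overlapping matches counted separately. SCN9A lies at chr2:166375945-166376194, minus strand. KCNK5 lies at chr6:39229476-39229725, minus strand. KCNH5 lies at chr14:63045459-63045708, minus strand. SCN8A lies at chr12:51590983-51591232, plus strand.
SCN9A: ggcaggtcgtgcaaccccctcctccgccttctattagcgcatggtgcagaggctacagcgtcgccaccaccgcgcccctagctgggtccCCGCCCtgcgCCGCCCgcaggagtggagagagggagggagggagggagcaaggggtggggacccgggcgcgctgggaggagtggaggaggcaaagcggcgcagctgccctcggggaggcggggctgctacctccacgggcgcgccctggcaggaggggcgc
KCNK5: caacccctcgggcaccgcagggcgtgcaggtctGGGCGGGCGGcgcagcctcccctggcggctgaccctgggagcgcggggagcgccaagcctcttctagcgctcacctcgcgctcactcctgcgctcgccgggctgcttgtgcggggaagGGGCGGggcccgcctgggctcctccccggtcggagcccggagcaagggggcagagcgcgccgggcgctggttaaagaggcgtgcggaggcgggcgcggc
KCNH5: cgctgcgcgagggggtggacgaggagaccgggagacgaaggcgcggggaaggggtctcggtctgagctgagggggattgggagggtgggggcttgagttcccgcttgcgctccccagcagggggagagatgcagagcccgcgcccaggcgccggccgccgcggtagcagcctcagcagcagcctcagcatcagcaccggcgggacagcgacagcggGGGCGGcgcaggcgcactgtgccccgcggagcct
SCN8A: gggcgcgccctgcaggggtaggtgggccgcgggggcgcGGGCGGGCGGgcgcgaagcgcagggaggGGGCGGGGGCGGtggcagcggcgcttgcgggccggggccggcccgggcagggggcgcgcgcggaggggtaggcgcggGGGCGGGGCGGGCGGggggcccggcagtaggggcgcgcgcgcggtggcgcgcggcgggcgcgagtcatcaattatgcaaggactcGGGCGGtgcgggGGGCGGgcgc
The windows held 2, 3, 1 and 9 GC boxes for SCN9A, KCNK5, KCNH5 and SCN8A, and their GC content was 74.0%, 77.2%, 74.0% and 85.6%. None of the 4 held TATAAA on either strand. Windows were found for 36 of the 44 members, 60 windows in all, of which 46.7% held GGGCGG, against 42.6% of all 35116 windows of this length. TATAAA was in 11.7% of member windows and 10.7% of all windows, and median GC content was 64.2% and 58.0%. A match describes the letters and shows no bound factor. Counts per gene do not tell which start was used. The annotated KCNH5 gene extends upstream of the window shown, to position 63102037 on chromosome 14, as does that of SCN8A, which starts at position 51590266 on chromosome 12, and the SCN9A window overlaps the annotated gene, which ends at position 166376001 on chromosome 2.

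Most members were present at low levels. Per kilobase of annotated exon, which allows genes to be compared, the median member stood at 0.199 CPM per kilobase, against 2.1 for the 19922 protein-coding genes. There were 10 members at 1 CPM per kilobase or more, 17 between 0.1 and 1, and 17 under 0.1. At least 1 count was found in every library for 39 members, while 18 had under 100 counts over the 6 libraries together. KCNA6, a shaker-type channel gene, had 0 counts throughout. All 4237 of its exon bases lie within exons of GALNT8 on the same strand, so a count of 0 need not mean absent transcript.

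KCNAB2 and KCNS3 were the highest members, and neither forms a channel alone. KCNAB2, a cytoplasmic beta subunit of shaker-type channels with the fold of an aldo-keto reductase, averaged 45.3 ± 16.7 CPM per kilobase (SD, n = 6) and made up 51.5% of the members' summed level. Its pore partners were low: KCNA2 averaged 0.376 ± 0.239, KCNA3 0.165 ± 0.132, and KCNA1 and KCNA5 were at 0.00489 and 0.0227 CPM per kilobase. KCNS3, a silent subunit that works only in assembly with KCNB channels, averaged 13.9 ± 0.687 CPM per kilobase. Next came KCNN2, a small-conductance calcium-activated channel, at 6.56 ± 1.83, and KCNQ5, a subunit of the M current that holds neurons near rest, at 4.19 ± 0.257. KCNJ13, an inward rectifier known from retinal pigment epithelium, averaged 3.71 ± 0.415 CPM per kilobase, and KCNAB1, the paralogue of KCNAB2, 2.96 ± 0.699. KCNJ13 shares 993 of its 2977 exon bases with other annotated genes, so its level is uncertain. Every sodium channel pore gene lay below these 6 potassium channel genes: SCN9A was the highest of them at 0.314 ± 0.394 CPM per kilobase and SCN2A was next at 0.228 ± 0.111.

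**Figure D1:**
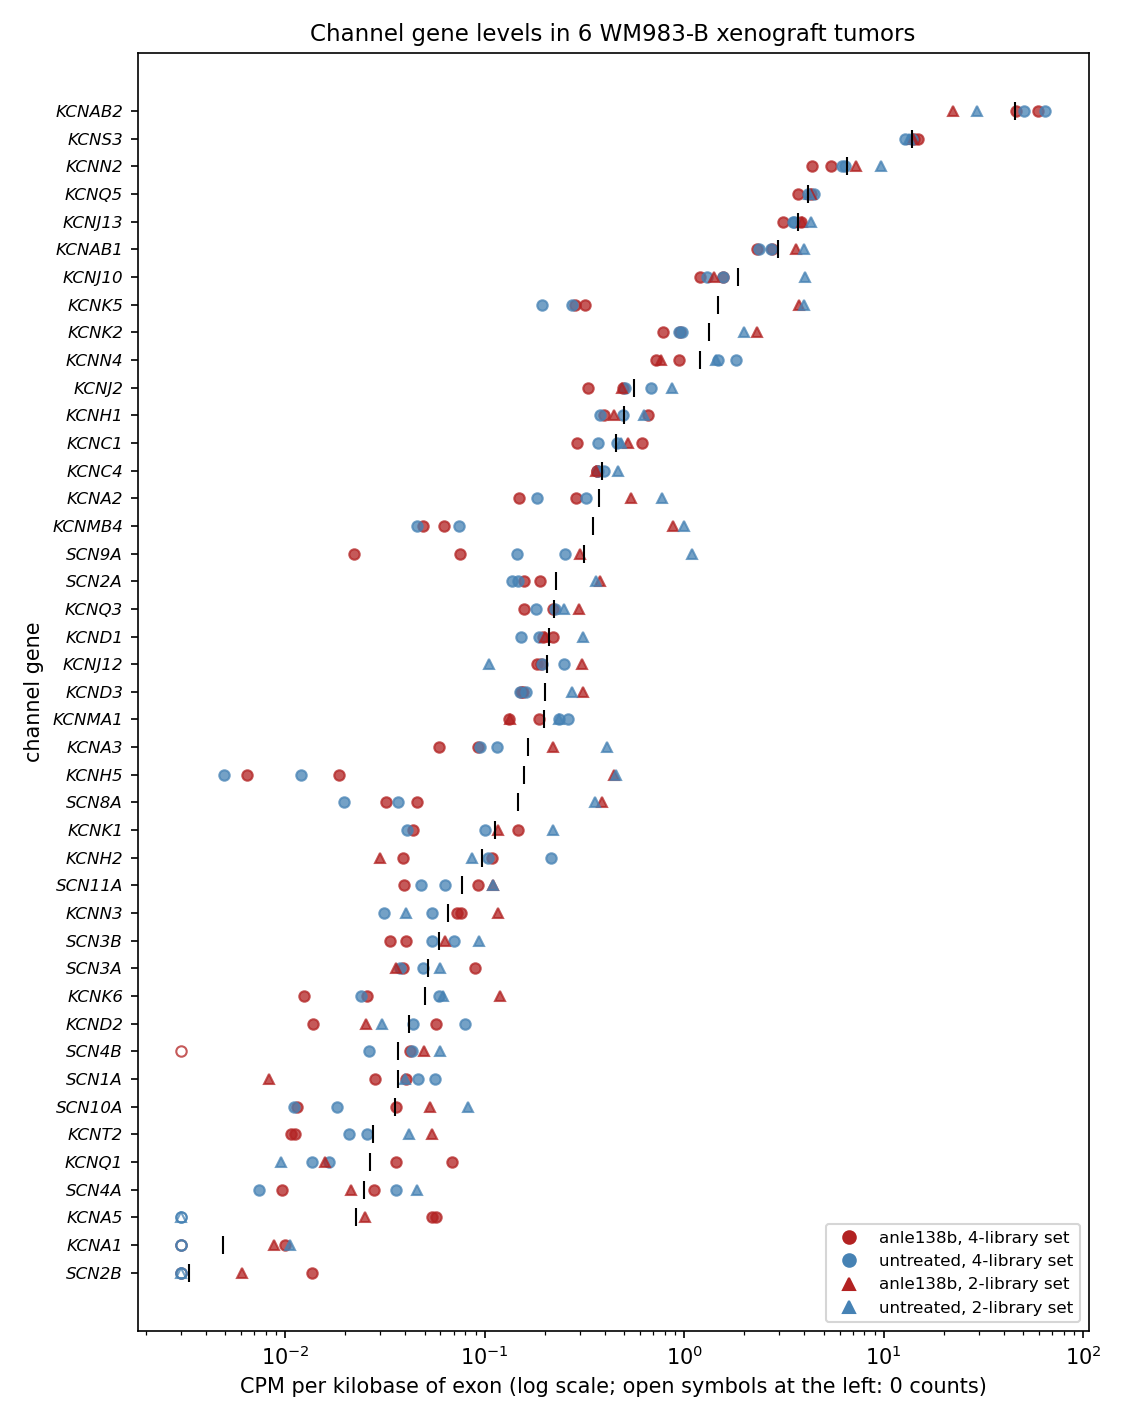
Level of each channel gene with a count, per kilobase of exon (horizontal log axis, CPM per kilobase), in each of the 6 tumors, ordered by mean level; colours mark treatment, shapes the naming set, ticks the mean and open symbols 0 counts. KCNAB2 averaged 45.3 and KCNS3 13.9 CPM per kilobase, while 17 of the 44 members lay under 0.1.

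Treatment was compared across all 6 tumors with the naming set as a term in the fit, since each set held both groups. Of the 25 members tested, SCN9A alone was called, lower in treated tumors, by edgeR's quasi-likelihood test with Benjamini-Hochberg adjustment at 0.05. That is 4.0% of the members, beside 1.05% of all 20423 genes tested, with 0.656% of all genes called higher and 0.397% called lower. With 1 call the share carries little weight. The members' median log2 fold change was -0.06, against -0.01 for all genes, and their range was -1.94 to 1.13. At an unadjusted p under 0.05 there were 7 members, 28.0% of those tested, against 8.49% of all genes: SCN9A, SCN1A, KCNN4, KCNMA1, KCNN2 and KCNJ2 with lower values in treated tumors, and KCNN3 with higher ones.

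SCN9A encodes a sodium channel pore of nociceptive sensory neurons, where loss of function causes inability to feel pain (ENSG00000169432, chromosome 2, 166195185 to 166376001, minus strand, GRCh38). In the 4-library set it had 4 and 13 counts in the treated tumors and 57 and 27 in the untreated, and in the 2-library set 117 in the treated and 355 in the untreated tumor. Scaled for depth, these were 0.305 and 1.03 CPM against 3.46 and 1.99, and 4.12 against 15.0. Within each set every treated tumor lay below every untreated one, but across sets the groups overlapped, since the treated tumor of the 2-library set lay above both untreated tumors of the 4-library set. Over all tumors the level was 1.82 ± 2.02 CPM treated and 6.81 ± 7.11 CPM untreated (SD, n = 3 each), SDs that hold the difference between sets. SCN9A fell by 1.94 on the log2 scale (SE 0.32, adjusted p = 0.0228, edgeR), with an untreated level 4.07 times the treated one in the 4-library set and 3.64 times in the 2-library set.

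Its log2 fold change stayed between -2.11 and -1.71 over 16 alternatives, and SCN9A was called in 11 of them. The call was lost without untreated replicate 1 (adjusted p = 0.0998), without anle138b replicate 3 (0.189) and without untreated replicate 3 (0.19), by edgeR. It was also lost in the 4-library set alone (0.228), where 0.457% of all genes were called, and with no set term (1), where 0.0441% were. Adjusted p for SCN9A over the alternatives ranged from 1.09e-10, with no low-count filter, to 1. The log2 fold change with no filter was -1.93, so adjusted p fell from 0.0228 at nearly the same effect. Between naming sets KCNK5 likewise went from 7.05e-06 to 1.93e-56 (edgeR), at 3.87 and 3.89. Calls made with no filter are therefore given little weight here and below. Exons of SCN1A-AS1, transcribed from the opposite strand, overlap 1122 bases of SCN9A exons, and the library kit does not mark strand. SCN1A-AS1 itself had 1 and 4 counts in the treated and 3 and 7 in the untreated tumors of the 4-library set, and 15 and 38 in those of the 2-library set. It was below the filter and not tested, and its counts overlapped between groups in the 4-library set. No gene in the 8 marker lists of other cell types and melanoma was called for treatment by edgeR (0 of 46 tested, beside 1.05% of all genes). DESeq2 called 1 and limma voom 0. At an unadjusted p under 0.05 there were 6 marker genes, 13.0% of those tested, beside 8.49% of all genes. Summed neuron markers were at 29.4 to 54.1 CPM in treated and 30.3 to 56.5 CPM in untreated tumors, and their part in the SCN9A result was not tested.

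The other sodium channel pore genes gave no call. SCN2A, a pore of central neurons, was at 3.74, 4.46 and 8.97 CPM in treated replicates 1 to 3 and at 3.46, 3.25 and 8.52 CPM in untreated ones. SCN1A, a pore of inhibitory neurons, was at 0.686, 0.477 and 0.141 CPM treated and 0.789, 0.960 and 0.675 CPM untreated. Treated tumors lay above untreated ones within both sets for SCN2A, with a log2 fold change of 0.19 ± 0.18 (SE, adjusted p = 0.908, edgeR), and below them for SCN1A, with -1.07 ± 0.43 (adjusted p = 0.504) on 61 counts in all. SCN11A, a pore of sensory neurons, gave 0.11 ± 0.39. SCN3A, SCN4A, SCN8A and SCN10A and the beta subunits SCN2B, SCN3B and SCN4B were below the filter. The higher beta subunits were SCN3B, with 4 to 21 counts per library, and SCN4B, with 0 to 8.

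Calcium-activated potassium channels, which open when cytosolic calcium rises, held most of the next smallest p-values. KCNN4, the intermediate-conductance channel of lymphocytes and red blood cells, was at 3.20, 2.47 and 2.60 CPM in treated replicates 1 to 3 and at 5.03, 6.20 and 4.93 CPM in untreated ones. The groups did not overlap in any set or over all 6 tumors. Its mean was 2.76 ± 0.391 CPM treated and 5.39 ± 0.705 CPM untreated (SD, n = 3), with the untreated level 1.98 times the treated one in the 4-library set and 1.89 times in the 2-library set. The log2 fold change was -0.96 ± 0.20 (SE, adjusted p = 0.0684, edgeR), which misses the threshold. It was called by DESeq2 (0.0355) and with no low-count filter (0.00456), and adjusted p over all alternatives ran from 0.00456 to 0.434.

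KCNMA1, the pore of the large-conductance channel opened by calcium and voltage, was at 4.73, 6.68 and 4.75 CPM treated and 9.34, 8.42 and 8.43 CPM untreated. The untreated values again lay above all treated ones, 8.73 ± 0.53 against 5.39 ± 1.12 CPM (SD, n = 3). Its log2 fold change was -0.71 ± 0.18 (SE, adjusted p = 0.146, edgeR). It was called without anle138b replicate 2 (0.0323) and with no low-count filter (0.0278), over a range of 0.0278 to 0.782. KCNN2 was at 35.2, 28.4 and 47.0 CPM treated and 41.6, 40.2 and 63.1 CPM untreated, lower in treated tumors within each set and overlapping across sets, with -0.39 ± 0.11 (SE, adjusted p = 0.205, edgeR). KCNN3, like KCNN2 a small-conductance channel, went the other way. It was at 0.991, 1.03 and 1.58 CPM treated against 0.425, 0.738 and 0.548 CPM untreated, with no overlap and 101 counts in all, and the log2 fold change was 1.13 ± 0.34 (SE, adjusted p = 0.247, edgeR). All 4 tested calcium-activated members thus had an unadjusted p under 0.05 and none was called by edgeR, with 1 called by DESeq2 and 0 by limma voom.

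Among the inward rectifiers, which pass potassium near rest, KCNJ2, the main rectifier of heart and skeletal muscle, was at 2.74, 1.83 and 2.71 CPM treated and 3.82, 2.81 and 4.85 CPM untreated. Its groups did not overlap, although the closest values, 2.74 and 2.81, were near each other, and the log2 fold change was -0.66 ± 0.24 (SE, adjusted p = 0.396, edgeR). KCNJ13 was at 9.30, 11.5 and 11.6 CPM treated and 10.4, 10.6 and 12.9 CPM untreated, which overlap, with -0.07 ± 0.14. KCNJ10, the rectifier of glia and of the stria vascularis, was at 7.93, 10.3 and 9.29 CPM treated and 10.3, 8.56 and 26.6 CPM untreated. The value of 26.6 in untreated replicate 3 stood above the other 5, and the log2 fold change was -0.61 ± 0.28 (SE, adjusted p = 0.621, edgeR).

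The most abundant members were not called for treatment. KCNAB2 was at 565, 441 and 211 CPM treated and 482, 615 and 278 CPM untreated, with -0.22 ± 0.14 (SE, adjusted p = 0.805, edgeR). KCNAB1 was at 15.8, 18.9 and 25.0 CPM treated and 18.6, 16.2 and 27.4 CPM untreated, with -0.05 ± 0.13. Both overlapped between groups. KCNS3 lay within a narrow band, 46.4, 44.5 and 44.0 CPM treated and 40.2, 43.6 and 42.0 CPM untreated, with 0.10 ± 0.10, and KCNQ5 was at 28.1, 32.5 and 32.5 CPM treated and 31.4, 33.9 and 32.0 CPM untreated, with -0.06 ± 0.11.

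The remaining tested members were also not called for treatment. KCNC1, a fast-activating channel of neurons that fire rapidly, was at 4.19, 8.83 and 7.53 CPM treated and 6.67, 5.32 and 6.96 CPM untreated, and KCNH1, an ether-a-go-go channel often studied in tumors, was at 3.89, 6.45 and 4.36 against 4.85, 3.69 and 6.16 CPM. KCNQ3, the partner of KCNQ5 in the M current, was at 1.98, 2.79 and 3.76 CPM treated and 2.85, 2.29 and 3.16 CPM untreated. All 3 overlapped between groups, and the log2 fold changes of KCNC1, KCNH1 and KCNQ3 were 0.11, -0.03 and 0.03. KCNH1 shares 5587 exon bases with other annotated genes, so its level is uncertain. Log2 fold changes of KCNC4, KCND1, KCND3, KCNA2, KCNK2, KCNK5 and KCNJ12 ran from -0.35 to 0.45. KCNJ12 shares most of its sequence with KCNJ18, which had 0 counts in every library, so reads of either may have been assigned to KCNJ12 or dropped.

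Non-overlap within both naming sets was counted over the tested members as a description. Treated tumors lay below untreated ones in both sets for 7 members (SCN9A, SCN1A, KCNN2, KCNN4, KCNMA1, KCNJ2 and KCNC4), beside 10.4% of all genes tested, and above them for 3 (KCNN3, KCNS3 and SCN2A), beside 9.55%.

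**Figure D2:**
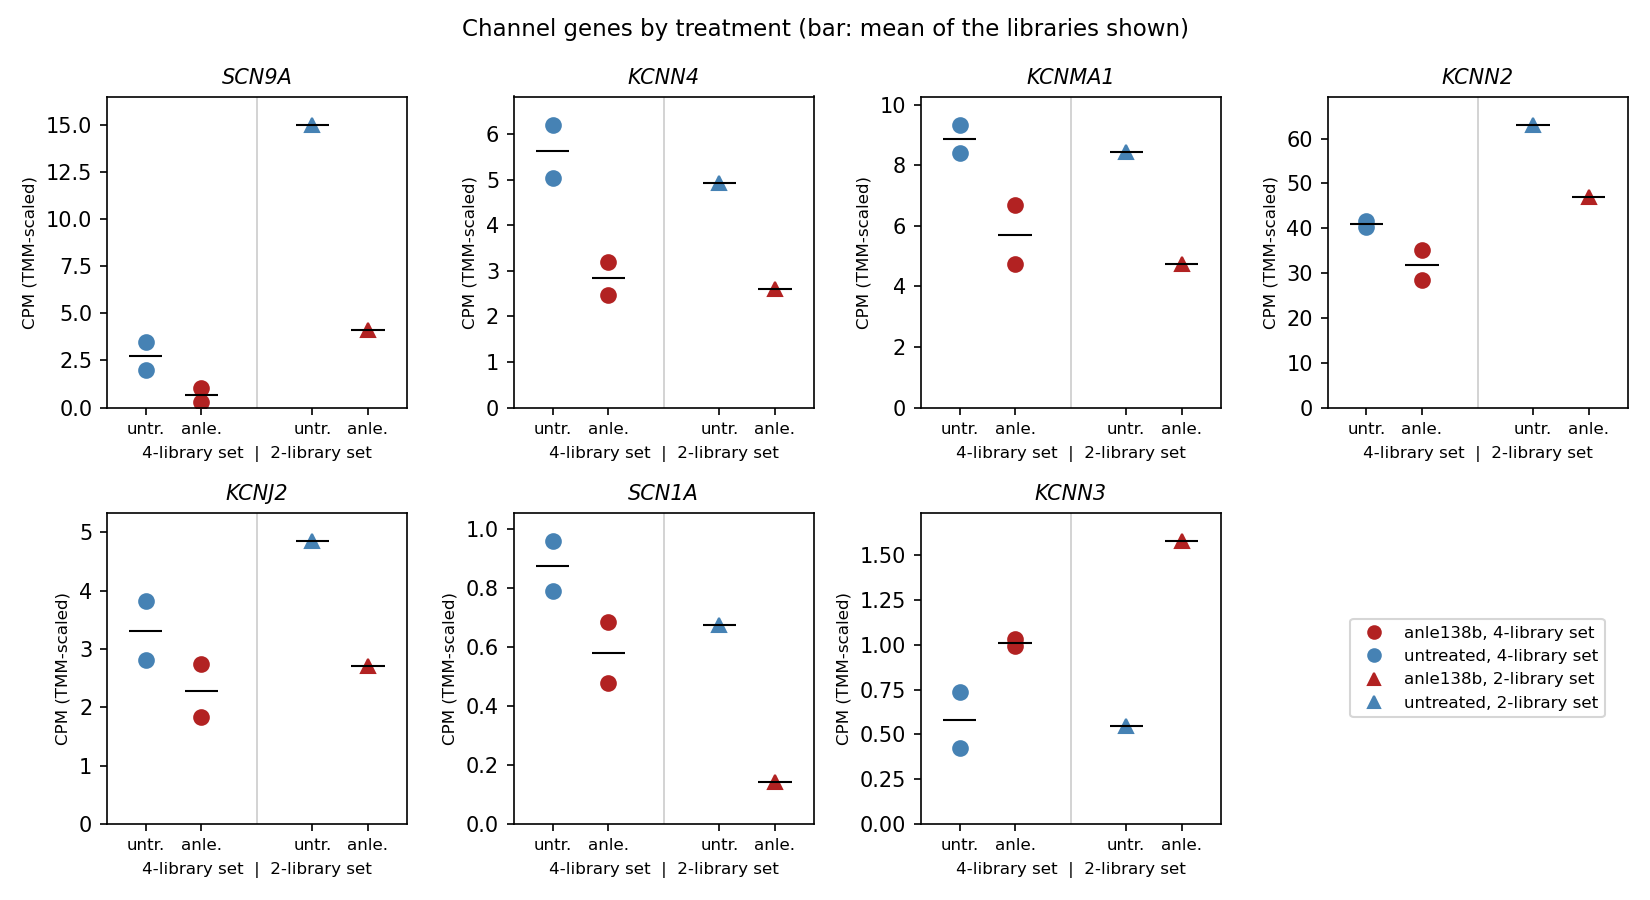
Scaled level (CPM, linear axis from 0) of the 7 members with an unadjusted p under 0.05 for treatment, untreated (untr.) beside treated (anle.) tumors in each naming set; points are libraries and bars their means. SCN9A was at 0.305 to 15.0 CPM and its treated tumors lay below the untreated ones within each set, while KCNN4 showed no overlap over all 6 tumors.

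Other channel genes outside the 44, listed by pathway, gave 2 treatment calls among 65 tested by edgeR (3.08%, beside 1.05% of all genes), both lower in treated tumors, beside 0.397% of all genes called lower. NALCN, the sodium leak channel that sets the resting potential of neurons, was at 12.2, 9.15 and 8.27 CPM treated and 20.3, 18.0 and 17.3 CPM untreated, without overlap. NALCN fell by 0.92 on the log2 scale (SE 0.15, adjusted p = 0.0215). The lists of auxiliary subunits, sodium channel scaffolds and regulators, calcium channels, and the sodium pump with HCN channels (7, 17, 11 and 9 tested) held 0 calls by edgeR, DESeq2 or limma voom, with 1, 4, 1 and 2 genes at an unadjusted p under 0.05. Those were 14.3%, 23.5%, 9.09% and 22.2% of the genes tested, beside 8.49% of all genes.

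Between the naming sets, compared in the same fit with treatment as a term, 9 of the 25 tested members were called by edgeR, 8 higher in the 2-library set and 1 lower. That is 36.0%, beside 15.5% of all genes tested, 8.32% called higher and 7.14% called lower. At an unadjusted p under 0.05 there were 10 members, 40.0%, beside 32.1% of all genes. The median log2 difference (2-library set over 4-library set) was 0.41 over the members and -0.02 over all genes. Under 3 other scalings the same 9 were called. With library size alone, the calls over all genes were 2244 higher and 1242 lower (64.4% higher), against 1699 and 1458 (53.8% higher) with the scaling used.

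Among tested members the largest difference was that of a potassium background channel gene, KCNK5. KCNK5, an acid-sensitive background channel of kidney and other epithelia, had 12 to 15 counts in each of the 4 libraries and 405 and 354 in the other 2, or 0.728 to 1.19 CPM against 14.2 and 14.9. Its level was 1.01 ± 0.198 CPM (SD, n = 4) and 14.6 ± 0.479 (n = 2), 14.5 times as high in the 2-library set, with a log2 difference of 3.87 ± 0.21 (SE, adjusted p = 7.05e-06, edgeR). KCNK2, a background channel opened by stretch, was at 3.05 to 3.82 CPM against 9.04 and 7.76, 2.35 times as high (adjusted p = 0.00263). For both genes the sets did not overlap.

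Of the 4 sodium channel pore genes tested, 2 were called between sets. SCN9A was 2.5 ± 0.30 higher on the log2 scale in the 2-library set (SE, adjusted p = 0.000707, edgeR), in the tumors listed above. SCN2A, at 3.25 to 4.46 CPM against 8.97 and 8.52, was higher by 1.24 ± 0.18 (adjusted p = 0.00189). SCN1A, between them on the chromosome, was not called, at -0.90 ± 0.45 (adjusted p = 0.195). SCN1A, SCN2A, SCN3A and SCN9A share a stretch of chromosome 2 with SCN7A, a sodium-sensing channel of glia (165087522 to 166494326, 1407 kb, 17 genes, 11 tested). SCN7A had 5, 21, 22 and 13 counts against 102 and 203, a difference of 2.42 ± 0.38 (adjusted p = 0.00365). The tested protein-coding genes of the same stretch that make no channel were CSRNP3, higher by 0.92 (adjusted p = 0.0418, edgeR), and GALNT3 and TTC21B, at -0.17 and 0.19, which were not called.

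In the shaker group both beta subunits and the only tested pore were called, in opposite directions. KCNAB2 was at 565, 441, 482 and 615 CPM in the 4-library set and 211 and 278 CPM in the 2-library set, without overlap, and fell by 1.11 on the log2 scale (SE 0.16, adjusted p = 0.00177, edgeR). KCNAB1 was at 15.8 to 18.9 CPM against 25.0 and 27.4, higher by 0.60 ± 0.13 (adjusted p = 0.0156). KCNA2, a shaker-type pore of myelinated axons, was at 2.59 to 5.58 CPM against 9.43 and 13.4, higher by 1.47 ± 0.27 (adjusted p = 0.00697). KCND3, an A-type channel of heart and brain, was at 1.18 to 1.27 CPM against 2.43 and 2.15, higher by 0.91 ± 0.25 (adjusted p = 0.0369). KCNN2 was higher by 0.60 ± 0.11 (adjusted p = 0.00868), 36.4 ± 5.96 CPM (SD, n = 4) against 55.0 ± 11.4 (n = 2). KCNS3 (-0.02 ± 0.10) and KCNQ5 (0.04 ± 0.11) were close to level between sets.

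**Figure D3:**
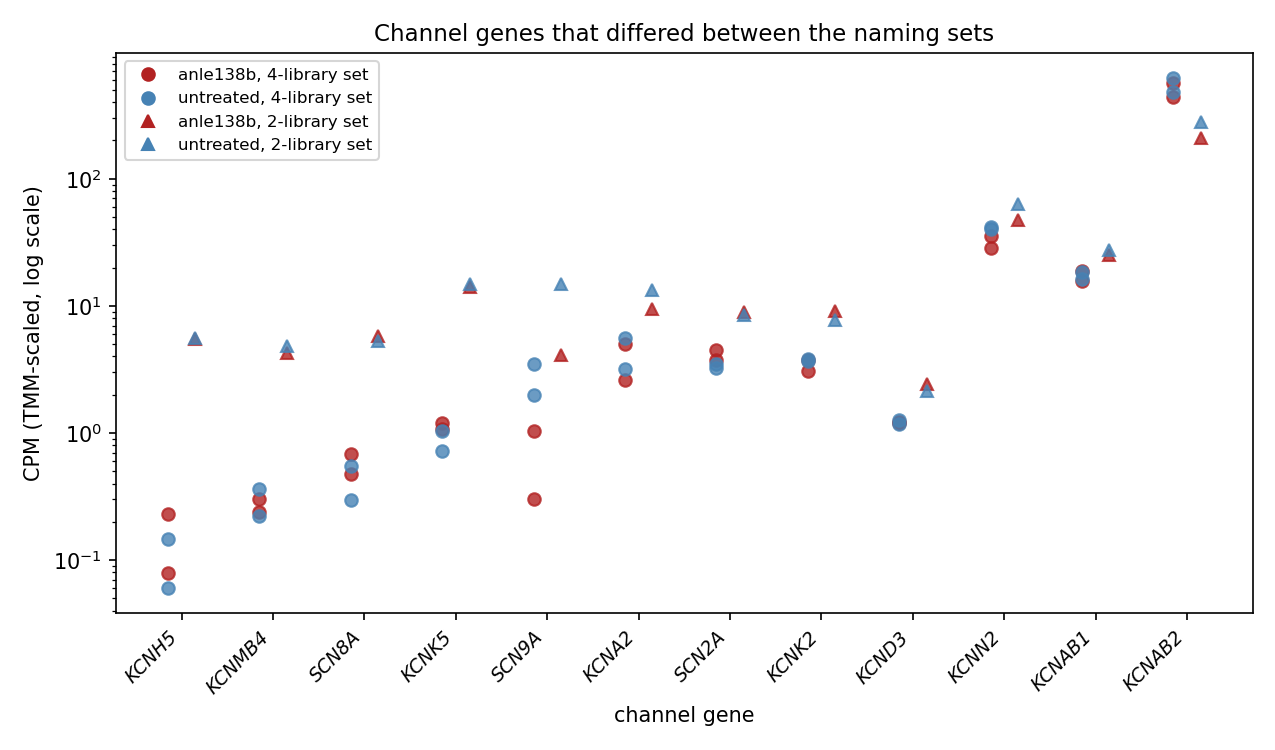
Scaled level (CPM, log axis) of the 9 members called between naming sets and of KCNH5, KCNMB4 and SCN8A; each point is a library, with shape for the naming set and colour for treatment. KCNK5 stood at 0.728 to 1.19 CPM in the 4-library set and 14.2 and 14.9 in the 2-library set, and KCNAB2 ran the other way.

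The calls for KCNK5, SCN9A, SCN2A, KCNK2 and KCNAB2 were made by edgeR with each library left out in turn. Those of KCNA2, KCNN2, KCNAB1 and KCND3 were lost without untreated replicate 3, with adjusted p of 0.0951, 0.0684, 0.151 and 0.211. KCNAB1 was also lost without anle138b replicate 1 (0.0594), and KCND3 in DESeq2 (0.123) and without anle138b replicate 1 (0.104), untreated replicate 1 (0.0699), untreated replicate 2 (0.0736) or anle138b replicate 3 (0.21). Adjusted p over the alternatives ran from 0.0189 to 0.211 for KCND3, from 0.00077 to 0.151 for KCNAB1, from 1.85e-11 to 0.0951 for KCNA2 and from 4.89e-05 to 0.0684 for KCNN2.

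Some members were read almost only in the 2-library set and fell below the low-count filter, which asks for 3 libraries. KCNH5, a neuronal ether-a-go-go channel, had 3, 1, 1 and 2 counts in the 4-library set and 156 and 133 in the 2-library set, that is 0.0607 to 0.229 CPM against 5.49 and 5.61. SCN8A, a pore of the axon initial segment, had 9, 6, 9 and 4 counts against 164 and 126, and KCNMB4, the neuronal beta subunit of the KCNMA1 channel, had 4, 3, 6 and 3 against 121 and 115. In each of the 3 genes both libraries of the smaller set lay far above all others, treated and untreated alike. Pooled over the libraries of a set, the ratio of CPM was 11.1 for SCN8A (95% exact interval 7.5 to 16.9), 15.8 for KCNMB4 (9.5 to 28) and 44.1 for KCNH5 (21.1 to 111), with intervals that cover counting error only. KCNH5 had 7 counts in the whole 4-library set. A filter that asks for 2 libraries, from either naming set, was added after the data were seen. With it edgeR gave log2 differences of 5.37 ± 0.36 for KCNH5, 3.95 ± 0.29 for KCNMB4 and 3.43 ± 0.27 for SCN8A, with adjusted p of 8.24e-06, 1.78e-05 and 2.91e-05, beside calls for 18.7% of all 21958 genes then tested, 10.8% higher and 7.95% lower. These genes passed that filter only through the set in which they were high, so they had to differ. Their adjusted p therefore carry no weight of their own. The intervals carry none either, since the 3 genes were singled out as read almost only in the 2-library set. Of the 19 members under the first filter, 8 had both libraries of the 2-library set above all 4 others in CPM, beside 14.2% of the 26061 untested identifiers with a count. Among the 25 tested members there were 11, beside 18.7% of all genes tested. Both of those libraries were also sequenced more deeply.

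The 19 untested members were otherwise sparse. SCN2B, KCNA1 and KCNA5 had 2, 5 and 6 counts over all libraries, and KCNQ1, the cardiac and epithelial delayed rectifier, had 11. KCNQ1 shares 177 exon bases with antisense genes, among them KCNQ1OT1, which had 3273 to 12391 counts per library. KCNH2, the cardiac repolarising channel, had 55 counts, KCNA3, the channel of T cells, 54, and SCN3A 53. The others, SCN4A, SCN10A, KCND2, KCNT2, KCNK1 and KCNK6, had 23 to 48 counts.

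Markers of other cell types and of melanoma moved with the naming set as well. Of 46 marker genes tested, 15 were called between sets (32.6%, beside 15.5% of all genes), 12 higher and 3 lower in the 2-library set. Melanoma markers made up 10 of those tested and 3 of those called, all 3 higher. The 12 neuron markers summed to 29.4 to 34.3 CPM in the 4-library set and 54.1 and 56.5 CPM in the 2-library set; none was at 0 in every library, and of 6 tested NEFL, SYP and SYT1 were higher, NEFL by 4.71 on the log2 scale. The other tested neuron markers were not called, with log2 differences of 0.36 for AVIL, -0.76 for SNAP25 and -0.88 for RBFOX3. Fibroblast and smooth muscle markers, 9 genes with 8 tested and none at 0, summed to 222 to 355 against 465 and 615 CPM, with COL1A1, COL1A2 and COL3A1 higher. Endothelial markers summed to 8.64 to 11.5 against 16.8 and 19.3 CPM (7 genes, 5 tested, none at 0). Of these KDR was higher by 2.2, while CDH5, VWF, TEK and CLDN5 had log2 differences of -1.16 to -0.14 and were not called. Schwann cell markers summed to 259 to 308 against 294 and 413 CPM (7 genes, 5 tested, none at 0, PMP2 and EGR2 higher). Of 14 skeletal muscle markers 7 were tested, MYL1 was at 0, and MYH1, MYH2 and MYH4 were lower in the 2-library set. The list summed to 256 to 442 against 286 and 309 CPM, but TTN alone was at 197 to 331 CPM across all libraries. In anle138b replicate 2 CKM had 131 counts and TNNT3 77, against 1 to 11 and 0 to 5 in the others, while MB was lowest there, at 2. Melanoma markers (10 genes, all tested) summed to 15522 to 19078 against 14068 and 15617 CPM, with MLANA, TYRP1 and S100B higher. Of the 10, 5 had positive and 5 negative log2 differences, from -0.49 to 1.73. Immune markers (8 genes, 3 tested, CD3D at 0) summed to 21.7 to 40.8 against 36 and 45.8 CPM, and keratinocyte markers (6 genes, 2 tested, none at 0) to 17.3 to 24.4 against 19.7 and 24.3 CPM. Both lists held 0 calls between sets by edgeR, DESeq2 or limma voom, and 0 genes at an unadjusted p under 0.05, beside 32.1% of all genes. The part of these cell types, and of depth, in the set differences of the channel genes was not tested.

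Of the channel genes outside the 44, 18 of 65 tested were called between sets (27.7%, beside 15.5% of all genes; 14 higher and 4 lower). CACNA2D1, an auxiliary calcium channel subunit, was higher by 5.38 ± 0.25 (SE, adjusted p = 3.55e-06, edgeR), and KCNG1, a silent potassium channel subunit, was higher by 2.62 ± 0.28 (adjusted p = 0.000358). CACNA2D1 and KCNG1 were chosen for mention after their values were seen.

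**Figure D4:**
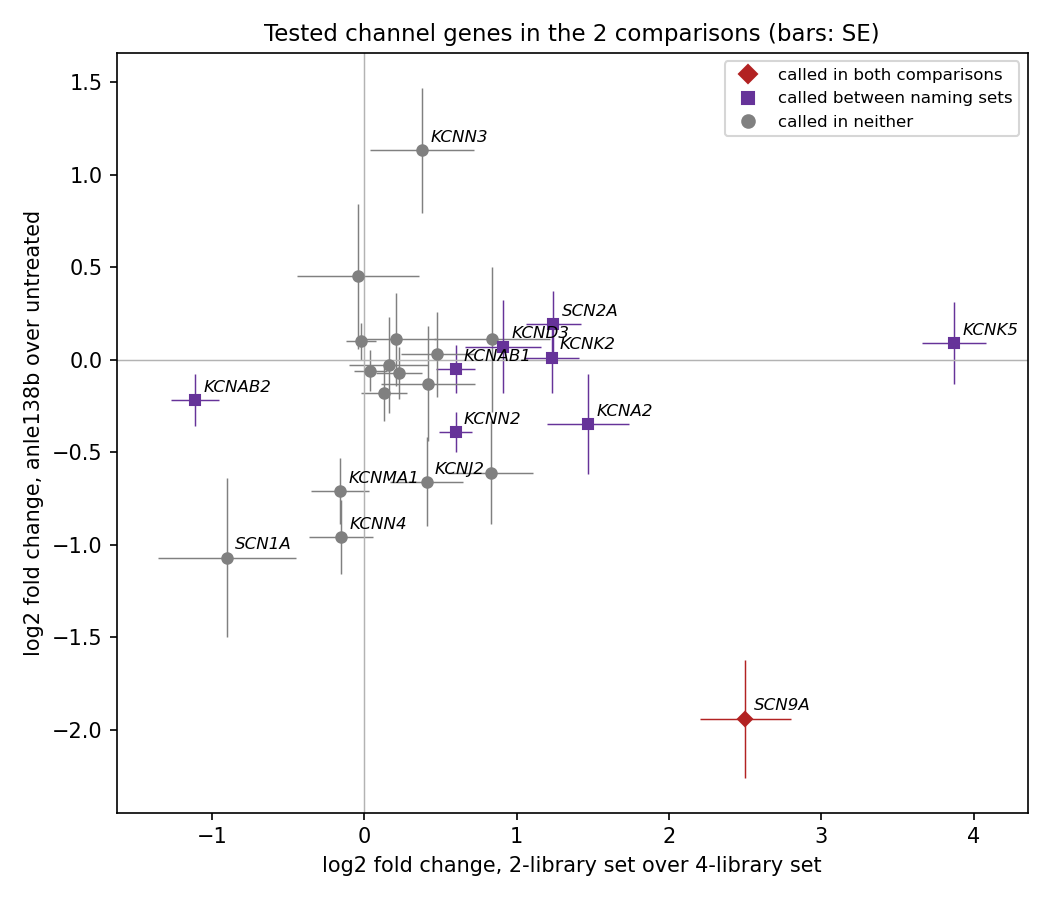
Log2 fold change for treatment (vertical axis) against log2 difference between naming sets (horizontal axis) for the 25 tested members, with standard errors as bars. SCN9A is the member called in both comparisons, at -1.94 and 2.5, and most others lie near 0 on the treatment axis.

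Whether the treatment effect differed between the naming sets was tested by an interaction term, which left 2 residual degrees of freedom, as the 2-library set has no replicates. No member was called by edgeR (0 of 25, 2 at an unadjusted p under 0.05, and 0 by DESeq2 and by limma voom), beside 0% of all genes tested and 6.59% at an unadjusted p under 0.05. SCN9A gave 0.19 ± 0.64 (SE, adjusted p = 0.974), a standard error too wide to tell a like effect from a different one. KCNJ10 gave -1.47 ± 0.32 (adjusted p = 0.442). Its untreated level was 1.03 times the treated one in the 4-library set and 2.86 times in the 2-library set, the latter from 1 tumor of each group. KCNJ10 was called without anle138b replicate 1 (0.00305), without untreated replicate 1 (0.0439) and with no low-count filter (0.00594), over a range of 0.00305 to 0.478. KCNJ12 gave 1.77 ± 0.64 (adjusted p = 0.736), with 14 to 19 counts in the 4-library set and 49 treated against 14 untreated in the other.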

How the data were processed

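Per the labels' protocols, TRIzol was used for extraction and the TruSeq RNA kit v2, which does not mark strand, for library preparation. Each deposited file gives the raw counts of 1 tumor by gene, and 0 rows named no gene. The submitters' processing notes name build hg38 and the tools STAR 2.5.2a, featureCounts 1.5.0-p1 and bcl2fastq 2.17.1.14. The annotation release, the strand and multiple-mapping settings and the handling of mouse reads are not given in the sources used here. GENCODE release 29 gave symbols, positions and exon lengths for 58542 of 60617 identifiers.

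The counts went into edgeR 4.0.16 (R 4.3.3). The filter was filterByExpr by treatment group (minimum count 10, minimum total 15) and the scaling TMM. Quasi-likelihood F tests used treatment and naming set as terms (3 residual degrees of freedom), and p-values over 20423 genes were adjusted by Benjamini-Hochberg, with a threshold of 0.05. The SE given for a log2 fold change was derived as its absolute value divided by the square root of the F statistic. The biological coefficient of variation was 12.8%. CPM are TMM-scaled, and CPM per kilobase divides by the union of annotated exons. The fits were tested on simulated data. Replicates differed by more than sampling noise, so each library counted once. Chi-square per degree of freedom was 5.96 (treated) and 5.87 (untreated) within the 4-library set. For pairs of like treatment across naming sets it was 14.3 to 31.8, which holds the difference between sets.

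The treatment label gave the groups. Replicate numbers follow listing order and pair no tumors. Alternatives were 3 scalings, 2 low-count filters, DESeq2 1.42.0, limma 3.58.1 voom, each library left out, other terms and the 4-library set alone. A filter by naming set, under which 2 libraries from either set suffice, was added after seeing the data. The members and lists were chosen with earlier results of these data known. Values in every library, or their range over libraries, are given for members called in any test or with an unadjusted treatment p under 0.05, and for the 2 highest members of each role per kilobase. From the other lists, up to 2 genes called for treatment are named per list. 1 such gene is not reported here.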

Additional observations from a re-analysis of the deposited data

How the results depend on the processing

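Of 266 recomputed values for single members, 244 kept their direction and side of the threshold, 15 lost the call, 7 gained it and 0 reversed. The count covers only members called between sets, or at an unadjusted p under 0.05 for treatment or the interaction, in the main fit. Outside it, treatment log2 fold changes ran from -0.24 to 0.72 for KCNJ12 and from -0.2 to 0.35 for KCNC1, which change sign. That of SCN2A stayed at 0.11 to 0.29. For treatment (215 genes, 1 channel gene), 754 genes and 4 channel genes were called with no low-count filter, 412 and 2 by DESeq2, 9 and 0 with no set term, 92 and 0 in the 4-library set alone, and 89 to 392 and 0 to 2 with a library left out. For the naming set (3157 genes, 9 channel genes), no filter gave 6250 and 14, and leaving out a library 993 to 5960 and 5 to 13, lowest without untreated replicate 3 and highest without anle138b replicate 2. For the interaction (0 genes, 0 channel genes), upper-quartile scaling gave 1 gene, library size alone 11, DESeq2 31, no filter 262 with 1 channel gene, and leaving out a library 24 to 436 with 0 to 1. The filter by naming set gave 224, 4108 and 0 of 21958 genes. These settings tested unlike numbers of genes. With no filter 46484 genes and 43 channel genes were tested, beside 20423 and 25 in the main fit. The shares of genes called with no filter were 1.62% for treatment and 13.4% for the naming set, beside 1.05% and 15.5%. By DESeq2 2.02% of genes were called for treatment. The causes were not tested. No paired analysis was possible because the titles give no replicate numbers that groups share. Of the 11 sodium channel members, 7 were below the filter used, and apart from SCN8A they had 2 to 65 counts in all.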
